A study of Rattus norvegicus with 48 samples.

Results

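Primary cultures of rat cortex were profiled by RNA-seq, and 10 genes of the tumour necrosis factor (TNF) system are described across all groups. They are 6 receptor genes (Tnfrsf1a, Tnfrsf1b, Tnfrsf8, Tnfrsf9, Tnfrsf11b, Tnfrsf14), 2 ligand genes (Tnfsf9, Tnfsf15) and 2 genes named for their induction by TNF (Tnfaip2, Tnfaip6). The genes were taken by symbol, 10 of the 30211 genes in the deposited table, and were selected on their CPM values, which were higher in Tat cultures than in Control cultures. The comparison of those 2 groups is therefore given as a description without a test. The tested differences are between means of other groups. The Tat and Control libraries still contributed to the shared estimate of spread in these tests.

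The cultures were prepared from the cortex of 18-day-old Sprague-Dawley rat fetuses and kept for 21 days in vitro. They formed 16 groups of 3 libraries, 48 in all. Control cultures were compared with cultures given Tat, the transactivator protein of HIV-1 (6 ng/mL, 48 h), cocaine (25 µM, 24 h) or both (Tat-Cocaine). The paper describes cocaine as a further 24 h after the 48 h of Tat. Tat-Cocaine and Tat cultures may therefore differ in total time as well, which was not tested. The other 12 groups received 1 of 4 compounds alone, with Tat, or with Tat and cocaine. The compounds were 4OI (4-octyl itaconate, an itaconate ester that enters cells, 250 µM), Amlexanox (an inhibitor of the kinases TBK1 and IKK-epsilon, 25 µM), Tazemetostat (an inhibitor of the histone methyltransferase EZH2, 3 µM) and Senicapoc (a blocker of a calcium-activated potassium channel, 1 µM). The labels do not name a vehicle for the compounds. They give the cell type as neuron, whereas markers of microglia and astrocytes were present in all 48 libraries, with summed levels of 595 to 5130 CPM and 5550 to 12800 CPM. The cultures were thus mixed, and in bulk RNA fewer cells of a type and less RNA per cell cannot be told apart. Levels are CPM values (reads of a gene scaled to the size of its library) as deposited. Differences are on the log2(CPM + 0.5) scale, which understates the change of genes near 0.5 CPM. The libraries held 17.5 to 29.1 M reads on genes, and 0.5 CPM stood for 8.58 to 15 reads.

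TNF is a trimeric cytokine made mainly by activated myeloid cells. Receptor 1, the product of Tnfrsf1a, is found on most cells and carries a death domain, whereas receptor 2, the product of Tnfrsf1b, is restricted to fewer cell types, among them microglia. The other receptors of the superfamily bind their own ligands, signal mostly through TRAF adaptor proteins to NF-kB, and are best known from immune cells. In brain, microglia and astrocytes are both sources and targets of TNF.

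Upstream sequences are shown for Tnfrsf1b, Tnfrsf8 and Tnfaip6, since the first 2 were the genes whose levels 4OI changed most clearly and the third was one it was not seen to change. RefSeq promoter sequences of the build GRCr8 were matched for 7 of the 10 genes and not for Tnfrsf11b, Tnfrsf14 and Tnfsf9. The 250 bases before the annotated start are printed 5′ to 3′ on the strand of the gene, at chr5:162387412-162387661 (minus strand), chr5:162451621-162451870 (minus strand) and chr3:56911148-56911397 (plus strand). Capitals mark matches to a loose NF-kB motif (GGGNNNNNCC) or to the AP-1 motif (TGANTCA) on either strand.
Tnfrsf1b: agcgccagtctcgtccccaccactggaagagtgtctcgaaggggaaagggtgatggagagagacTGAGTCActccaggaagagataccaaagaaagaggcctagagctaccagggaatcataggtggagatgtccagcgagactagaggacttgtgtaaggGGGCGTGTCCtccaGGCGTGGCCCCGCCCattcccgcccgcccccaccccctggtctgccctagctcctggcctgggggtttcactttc
Tnfrsf8: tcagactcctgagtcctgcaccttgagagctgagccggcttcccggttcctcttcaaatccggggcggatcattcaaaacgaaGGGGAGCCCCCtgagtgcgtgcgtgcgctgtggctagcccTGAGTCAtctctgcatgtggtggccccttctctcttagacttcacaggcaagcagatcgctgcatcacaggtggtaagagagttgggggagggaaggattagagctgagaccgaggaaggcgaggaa
Tnfaip6: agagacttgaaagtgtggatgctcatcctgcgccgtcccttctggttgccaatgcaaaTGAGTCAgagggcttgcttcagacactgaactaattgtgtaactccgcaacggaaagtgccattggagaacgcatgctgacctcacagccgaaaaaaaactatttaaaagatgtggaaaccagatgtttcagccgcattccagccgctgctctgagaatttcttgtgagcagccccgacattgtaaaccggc
Each of the 3 windows held the AP-1 motif once, matching on both strands, from position −186 (Tnfrsf1b), −127 (Tnfrsf8) and −192 (Tnfaip6) relative to the annotated start. The AP-1 motif was found in these 3 of the 7 windows and in 6.34% of all 33469 windows of that length. The NF-kB motif was found in 3 of the 7 (Tnfrsf1b, Tnfrsf8 and Tnfaip2) and in 42.3% of all windows, with matches that overlap one another in Tnfrsf1b and Tnfrsf8. The STAT motif (TTCNNNGAA) was found in 0 of the 7 and in 7.67% of all, and the TATA box (TATAAA) in 1 of the 7 (Tnfsf15) and in 12.9% of all. Tnfrsf1b and Tnfrsf8 are neighbours on chromosome 5, with 0 annotated genes between them.

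In Control cultures the receptors covered a wide range. Tnfrsf1a, receptor 1, stood at 81.4, 108.8 and 106.7 CPM in the 3 Control libraries and at 139.3, 138.1 and 127.5 CPM in the 3 Tat libraries. Tnfrsf1b, receptor 2, stood at 17.02, 28.2 and 19.7 CPM in Control and at 63.4, 68.7 and 60.3 CPM in Tat cultures. Thus receptor 1 had the smallest distance between Control and Tat cultures of the 10 genes (0.46 on the log2 scale), and receptor 2 stood 1.58 higher with Tat.

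Tnfrsf8, the receptor CD30 of activated lymphocytes, was close to the limit of detection in Control cultures, with 0.115, 0.392 and 0.409 CPM, and stood at 2.03, 2.39 and 1.70 CPM with Tat. Tnfrsf9, the costimulatory receptor CD137, stood at 4.83, 11.6 and 5.67 CPM in Control and at 47.1, 37.7 and 26.95 CPM in Tat cultures. Tnfrsf14, the herpesvirus entry mediator, stood at 1.15, 3.48 and 2.09 CPM and at 15.8, 32.97 and 9.17 CPM. In both groups the library of Tnfrsf14 with the highest level was replicate 2. Tnfrsf11b, which encodes the secreted decoy receptor osteoprotegerin, stood at 1.80, 0.932 and 1.23 CPM in Control and at 7.10, 9.47 and 4.87 CPM in Tat cultures.

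Both ligands were low. Tnfsf9, the ligand of CD137, stood at 0.460, 0.441 and 0.499 CPM in Control and at 1.98, 2.76 and 1.66 CPM in Tat cultures. Tnfsf15, the ligand of death receptor 3, stood at 0.652, 0.588 and 0.545 CPM and at 4.21, 3.95 and 2.60 CPM. The TNF-induced genes were higher: Tnfaip2, whose product takes part in forming membrane protrusions, stood at 29.8, 79.97 and 39.4 CPM in Control and at 303.8, 383.2 and 299.6 CPM in Tat cultures. Tnfaip6, a secreted hyaluronan-binding protein with anti-inflammatory action, stood at 5.45, 7.89 and 7.35 CPM and at 19.5, 27.1 and 22.8 CPM. For all 10 genes the 3 Tat libraries stood above the 3 Control libraries, as the choice of the genes implies. Among all genes tested, 19.4% had this order.

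**Figure D1:**
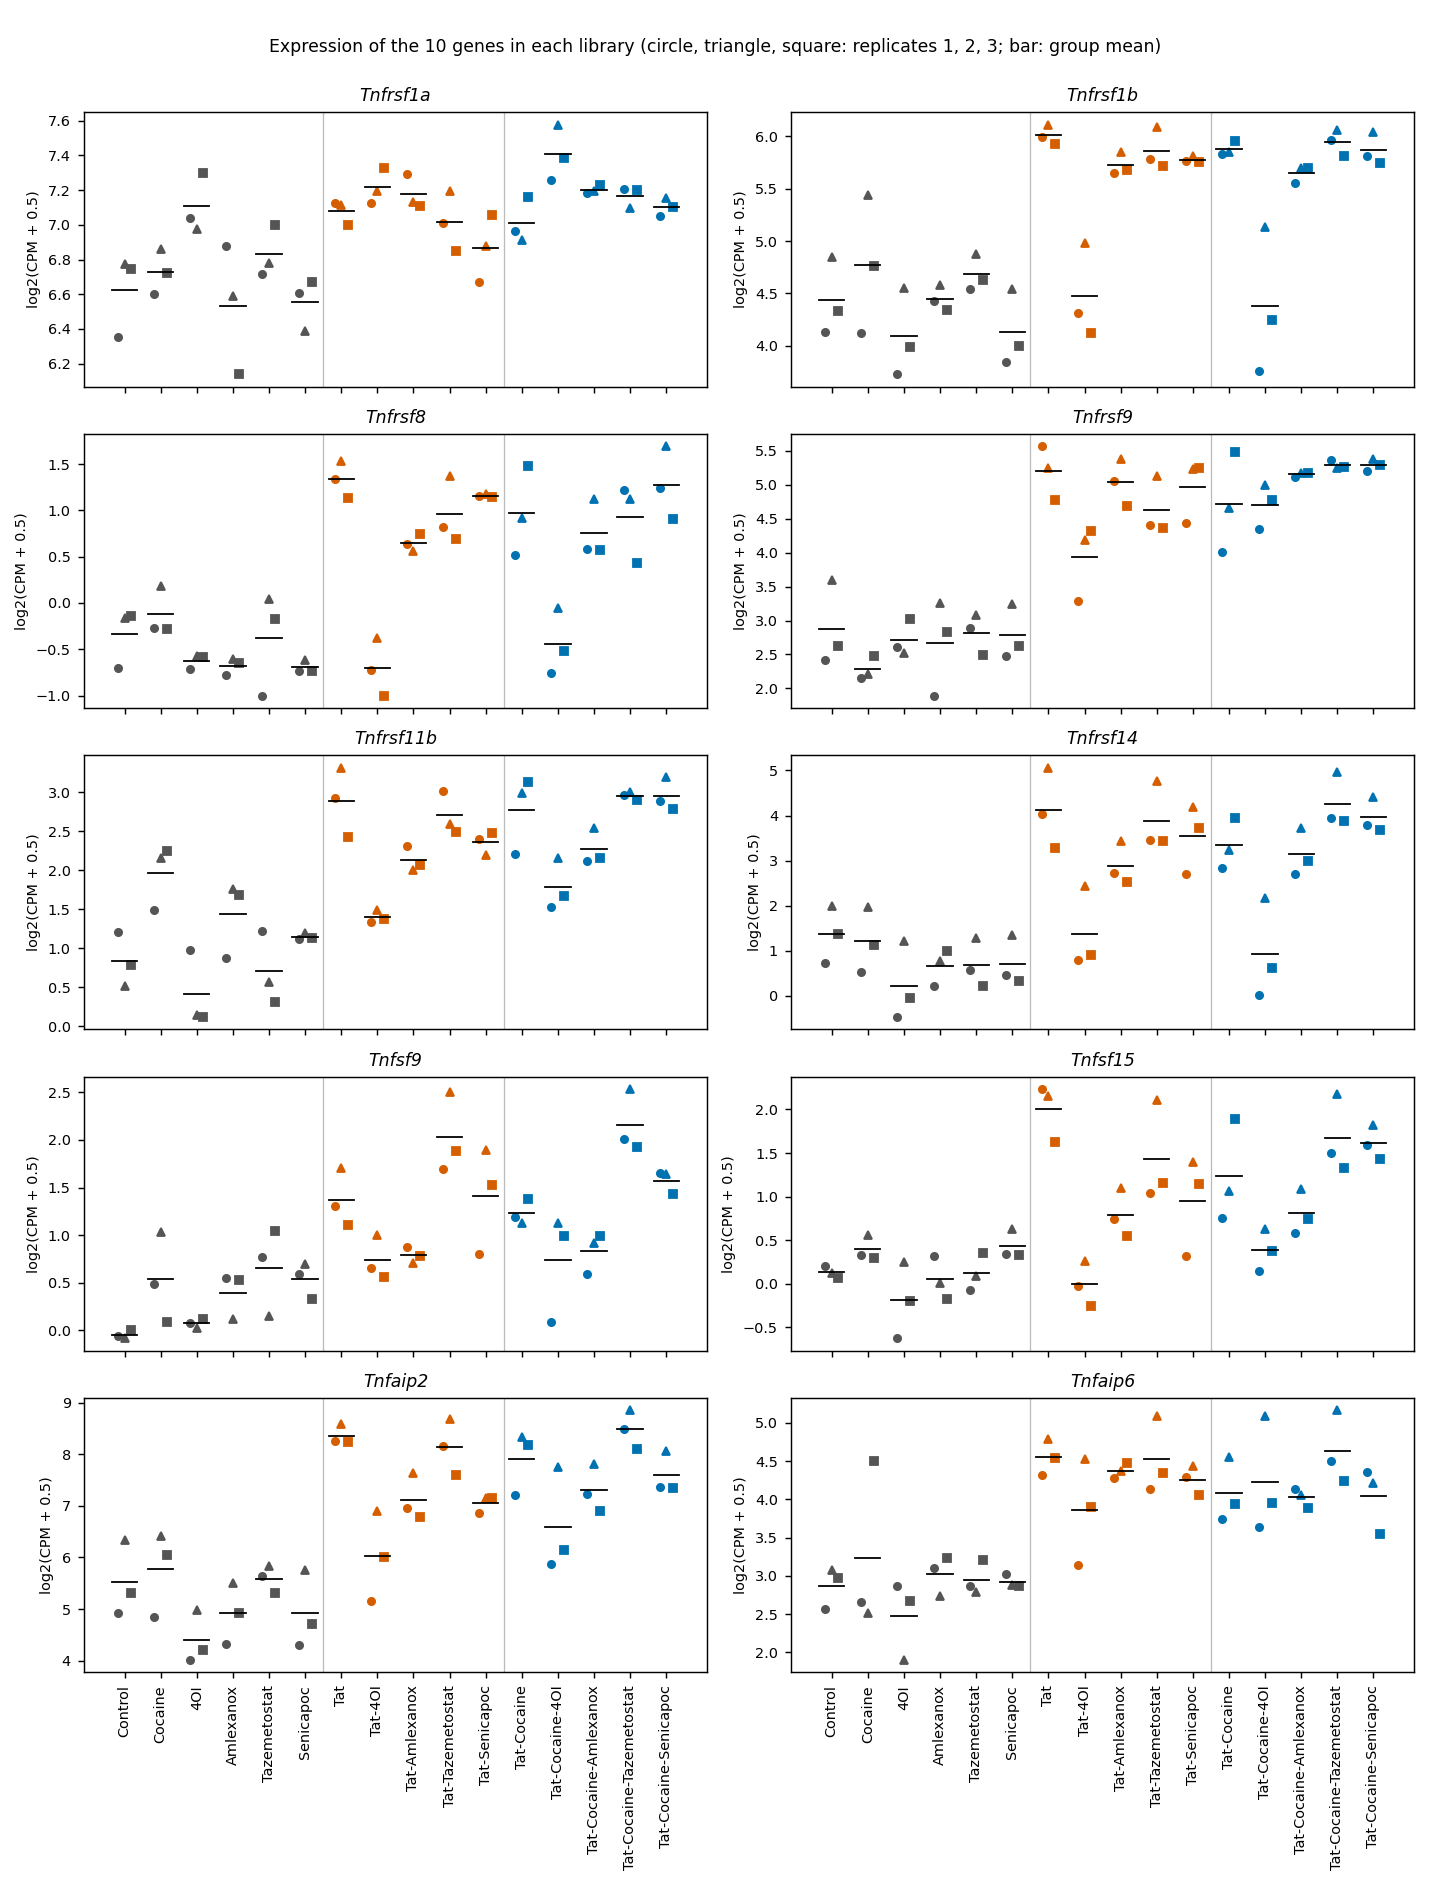
Level of each of the 10 genes in the 48 libraries, as log2(CPM + 0.5) on the vertical axis, by group on the horizontal axis. Points are libraries, with circles, triangles and squares for replicates 1, 2 and 3, and bars are group means. Grey groups had no Tat, orange groups had Tat without cocaine and blue groups had Tat with cocaine. Both groups with Tat and 4OI fall close to the groups without Tat for Tnfrsf1b, Tnfrsf8, Tnfrsf14 and Tnfsf15.

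The effect of Tat was tested in 5 other settings, each with its own 3 libraries without Tat: cultures with cocaine, 4OI, Amlexanox, Tazemetostat or Senicapoc. Averaged over the 5, all 10 genes were higher with Tat (limma FDR under 0.05), where 26.2% of all genes tested were higher and 21.4% lower. The median difference was 1.13 over the 10 genes, against −0.00439 over all genes tested. In the same comparison 55.1% of all calls were higher with Tat, and 42.1% after quantile normalization. All 10 stayed called when any 1 of the 30 libraries concerned was left out.

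Tnfrsf14 had the largest difference among the 10, 2.30 on the log2 scale (SE 0.25, limma FDR 1.90e-09). It ranged from 0.221 to 3.45 CPM in the 15 libraries without Tat (median 0.986) and from 1.23 to 26.6 CPM in the 15 with Tat (median 8.92). Tnfaip2 followed with 2.13 (SE 0.21, limma FDR 3.01e-10), from 15.7 to 84.97 CPM without Tat (median 31.1) and from 35.4 to 409 CPM with it (median 142.3). In both genes the ranges overlapped, and the lowest library with Tat was Tat-4OI replicate 1.

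Tnfrsf9 was higher by 2.01 (SE 0.15, limma FDR 4.33e-13). It was the member whose 15 libraries with Tat (9.31 to 44.1 CPM) all stood above the 15 without (3.22 to 9.12 CPM), an order seen in 0.743% of all genes tested. The secreted proteins came next. Tnfaip6 was higher by 1.296 (SE 0.17, limma FDR 1.18e-07), with a median of 6.79 CPM without Tat and 19 CPM with it. Tnfrsf11b was higher by 1.14 (SE 0.12, limma FDR 1.29e-09), with medians of 1.68 and 4.45 CPM.

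Tnfrsf1b was higher by 1.12 (SE 0.12, limma FDR 9.92e-10) and its neighbour Tnfrsf8 by 1.11 (SE 0.11, limma FDR 7.13e-10). Tnfrsf1b had a median of 22.7 CPM without Tat and 53.8 CPM with it, and Tnfrsf8 of 0.155 and 1.18 CPM. The ligands showed smaller differences, 0.80 for Tnfsf9 (SE 0.12, limma FDR 9.19e-07) and 0.72 for Tnfsf15 (SE 0.13, limma FDR 1.58e-05). Tnfrsf1a again had the smallest difference, at 0.31 (SE 0.06, limma FDR 5.29e-05), from a median of 105.0 CPM to 137.4 CPM.

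**Figure D2:**
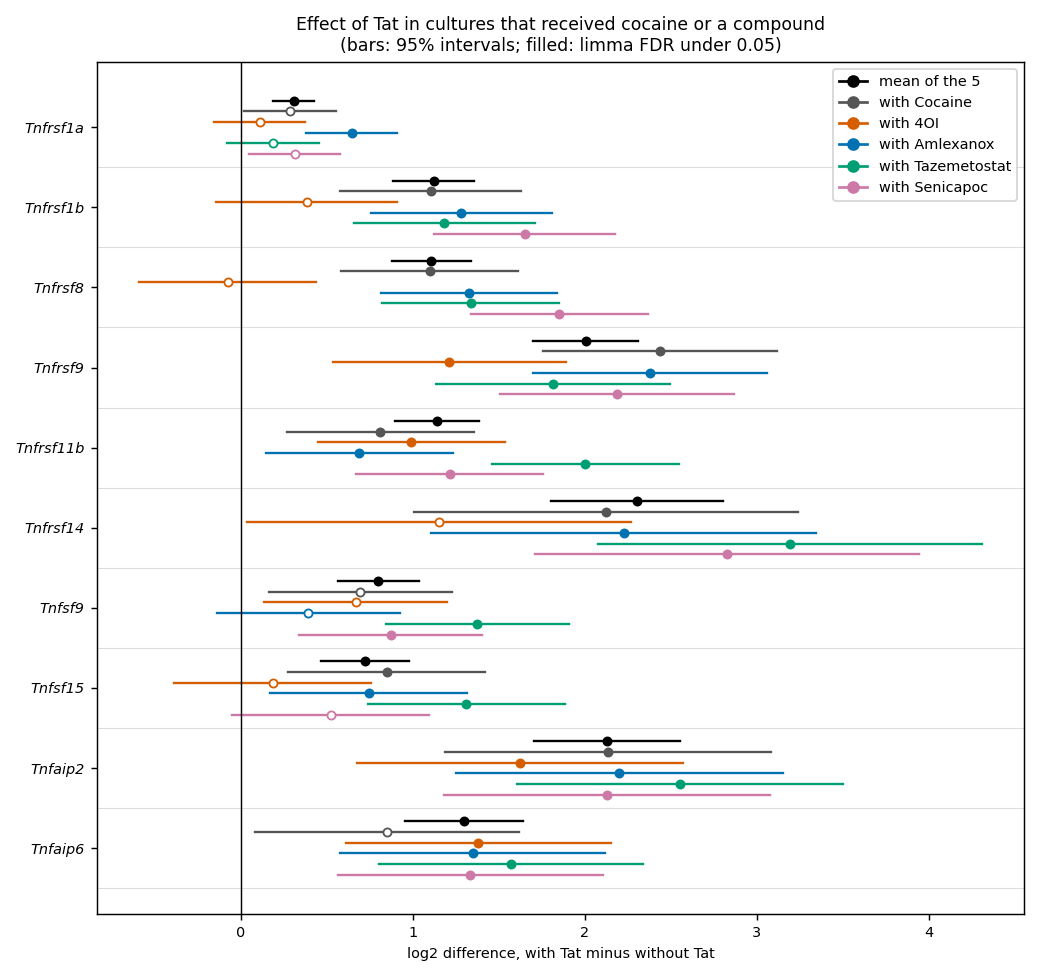
Difference between cultures with and without Tat for each of the 10 genes, on the log2 scale (horizontal axis), for the mean of 5 settings (black) and for each setting. Points are estimates, bars are 95% intervals, and filled points have a limma FDR under 0.05. The point of Tnfrsf8 with 4OI lies at −0.08, whereas its 4 other settings lie between 1.10 and 1.85.

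Taken one setting at a time, the number of the 10 genes that were higher with Tat was 9 with Amlexanox (22.6% of all genes tested), 9 with Tazemetostat (10.4%), 8 with Senicapoc (10.8%), 7 with Cocaine (6.75%) and 4 with 4OI (3.08%). In each setting 0 of the 10 were lower, where 2.1% (4OI) to 17% (Amlexanox) of all genes tested were, with 5.11% (Cocaine), 5.15% (Senicapoc) and 5.63% (Tazemetostat) between them. The genes not called were Tnfsf9 with Amlexanox (0.39, limma FDR 0.227), Tnfrsf1a with Tazemetostat (0.19, FDR 0.346), Tnfrsf1a and Tnfsf15 with Senicapoc (0.31, FDR 0.0994, and 0.52, FDR 0.217) and Tnfrsf1a, Tnfsf9 and Tnfaip6 with Cocaine (FDR 0.0788 to 0.162). The 4 genes called with 4OI were Tnfaip2 (1.62, FDR 0.0341), Tnfaip6 (1.38, FDR 0.0261), Tnfrsf9 (1.21, FDR 0.027) and Tnfrsf11b (0.99, FDR 0.0237), and their number was 0 without Tat-4OI replicate 2 or without Tat-4OI replicate 3. Leaving out 1 of the 3 libraries of 4OI left 2 (without replicate 1), 1 (without replicate 2) and 1 (without replicate 3). The count with Cocaine was 4 without Tat-Cocaine replicate 3. Of the calls with Cocaine, that of Tnfsf15 was lost in 5 and that of Tnfrsf11b in 3 of the 6 fits that leave out 1 library. Calls were also gained. Tnfaip6 was called without Cocaine replicate 3 (1.49, limma FDR 0.00521). It stood at 5.80, 5.23 and 22.2 CPM in the Cocaine libraries. Tnfsf9 was called without Cocaine replicate 2 (0.95, FDR 0.0235). With Senicapoc, Tnfrsf1a and Tnfsf15 were called without Tat-Senicapoc replicate 1 (FDR 0.0439 and 0.046). With Amlexanox, Tnfrsf11b was lost in 5 and Tnfsf15 in 4 of 6, so that the count was 7 to 8. With a model fitted to only the 6 libraries of a setting, it was 1 with Cocaine and 0 with 4OI.

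The response to Tat in the presence of 4OI was then compared directly with its mean response under the other 3 compounds. Tnfrsf8 passed this test, with a response that was smaller by 1.58 on the log2 scale (log2 difference −1.58, SE 0.29, limma FDR 0.00598), where 0.277% of all genes tested had a smaller and 0.0881% a larger response. It stood at 0.110, 0.172 and 0.167 CPM in 4OI cultures and at 0.107, 0.269 and 0 CPM in Tat-4OI cultures, and these ranges overlapped at values that stand for only a few reads. In Tat-Amlexanox, Tat-Tazemetostat and Tat-Senicapoc cultures its lowest library stood at 0.976 CPM. The call was lost without Tat-4OI replicate 3, the library at 0 (−1.43, limma FDR 0.052), and the size depended on the pseudocount (−2.92 with 0.1 CPM and −1.07 with 1 CPM, called in both). Of the other genes, the difference was −1.60 for Tnfrsf14 (95% interval −2.89 to −0.31, limma FDR 0.199), −0.99 for Tnfrsf1b (−1.60 to −0.38, FDR 0.123) and −0.91 for Tnfrsf9 (−1.70 to −0.13, FDR 0.216). For Tnfsf15 it was −0.67 (−1.335 to −0.013, FDR 0.252), and for Tnfaip6 it was −0.04 (−0.93 to 0.85, FDR 0.966). Of all calls in this comparison 24.1% were a larger response under 4OI, and 35.8% after quantile normalization.

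When 4OI was added to cultures with both Tat and cocaine, 4 of the 10 genes fell and 0 rose (limma FDR under 0.05), where 3.29% of all genes tested fell and 4.07% rose. All 4 were receptors. Tnfrsf1b stood at 56.6, 57.1 and 61.6 CPM in Tat-Cocaine and at 13.01, 34.6 and 18.4 CPM in Tat-Cocaine-4OI cultures, a log2 difference of −1.501 (SE 0.26, limma FDR 0.00019). Tnfrsf8 stood at 0.937, 1.39 and 2.30 CPM and at 0.0936, 0.466 and 0.198 CPM (−1.42, SE 0.25, limma FDR 0.000295). Tnfrsf14 stood at 6.60, 8.92 and 14.9 CPM and at 0.515, 3.97 and 1.04 CPM (−2.40, SE 0.55, limma FDR 0.00503). For these 3 genes the call held without any 1 of the 6 libraries. The size for Tnfrsf8 was −2.27 with a pseudocount of 0.1 CPM. Replicate 2 was the highest of the 3 Tat-Cocaine-4OI libraries in each of them.

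The fourth gene was Tnfrsf11b, at 4.13, 7.45 and 8.25 CPM in Tat-Cocaine and 2.39, 3.97 and 2.68 CPM in Tat-Cocaine-4OI cultures (−0.99, SE 0.27, limma FDR 0.0184). Its call was lost without Tat-Cocaine replicate 2 (FDR 0.0883) or 3 (FDR 0.0876) and without Tat-Cocaine-4OI replicate 1 (FDR 0.0793) or 3 (FDR 0.0788). Tnfaip2 and Tnfsf15 did not pass the test. Tnfaip2 had a difference of −1.32 (95% interval −2.27 to −0.37, limma FDR 0.0804) and Tnfsf15 one of −0.86 (−1.43 to −0.28, FDR 0.057). Tnfrsf9 stood at 15.6, 24.8 and 44.1 CPM and at 19.98, 31.3 and 26.96 CPM (−0.01, 95% interval −0.69 to 0.67), and Tnfaip6 had a difference of 0.15 (−0.62 to 0.92). Tnfrsf1a went the other way, from 124.3, 120.2 and 142.5 CPM to 152.7, 190.5 and 166.5 CPM (0.39, 95% interval 0.13 to 0.66, limma FDR 0.0594). The 2 receptors of TNF itself thus had differences of opposite sign with 4OI, of which that of Tnfrsf1b passed the test. With a model fitted to only these 6 libraries, 0 genes of the 10 were called, with limma FDRs of 0.129 to 0.225 for the 4 receptors.

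Over both sets of cultures with Tat, the 6 libraries with 4OI were set beside the 18 with another compound. Tnfrsf1b ranged from 13.01 to 34.6 CPM in the 6 and from 46.6 to 67.8 CPM in the 18. Tnfrsf8 ranged from 0 to 0.466 CPM and from 0.846 to 2.74 CPM, and Tnfrsf14 from 0.515 to 4.95 CPM and from 5.23 to 30.6 CPM. For these 3 genes the 6 libraries all stood below the 18, an order seen in 2.44% of all genes tested. The other 7 genes overlapped: Tnfrsf9, for example, ranged from 9.31 to 31.3 CPM in the 6 and from 20.2 to 41.4 CPM in the 18, and Tnfaip6 from 8.35 to 33.5 CPM and from 11.2 to 35.3 CPM.

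**Figure D3:**
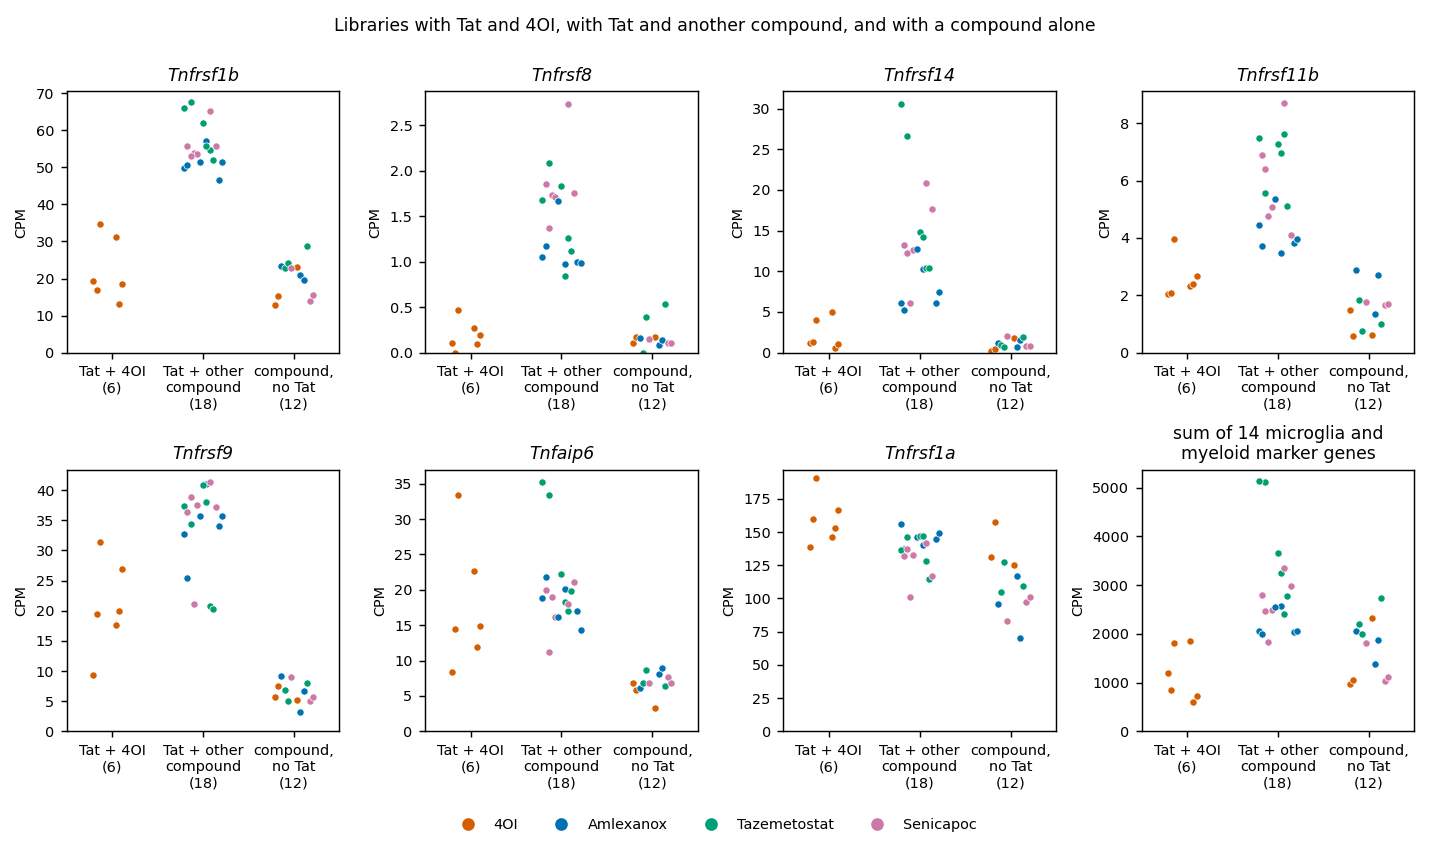
Level in CPM (vertical axis, from 0) of 7 of the genes, and summed level of 14 microglia and myeloid marker genes, in the 6 libraries with Tat and 4OI, the 18 with Tat and another compound, and the 12 with a compound and no Tat. Each point is a library, coloured by compound. The 6 libraries lie below all 18 for Tnfrsf1b, Tnfrsf8 and Tnfrsf14, and the marker sums of the 6 (595 to 1860 CPM) overlap with those of the 18 (1840 to 5130 CPM) at the edge.

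Myeloid markers were lower in the same libraries. The summed level of 14 microglia and myeloid markers was 595 to 1860 CPM in the 6 libraries with Tat and 4OI and 1840 to 5130 CPM in the 18 with Tat and another compound. When 4OI was added to Tat-Cocaine, 3.29% of all genes tested fell and 4.07% rose. Of the 14 markers 3 fell and 0 rose, with a median difference of −0.83. Of 5 border macrophage markers, 4 fell, with a median of −3.59. In the other lists 3 of 9 astrocyte markers rose, and 2 of 6 mural and fibroblast markers, 1 of 3 neutrophil markers (median −0.99) and the tested B cell marker (Cd79b, −1.53) fell. The neutrophil sum was 7.63 to 35.8 CPM in the 6 libraries with Tat and 4OI and 24.8 to 102 CPM in the 18. The neuron, oligodendrocyte lineage, endothelial and T and NK cell lists had 0 calls. Their part in the falls of the receptors was not tested. For the mean effect of Tat, the sum of the same list ranged from 977 to 3800 CPM in the 15 libraries without Tat and from 845 to 5120 CPM in the 15 with it. Of its 14 genes 5 rose and 1 fell, with a median of 0.32, and of the 5 border macrophage markers 0 rose and 3 fell. These counts stand beside 26.2% higher and 21.4% lower among all genes tested. Astrocyte markers (2 rose and 4 fell of 9), neuron markers (0 and 1 of 10), oligodendrocyte lineage markers (0 and 3 of 9), endothelial markers (0 and 1 of 5 tested) and mural and fibroblast markers (2 and 2 of 6) were counted in the same way. Of the B cell list 1 gene (Cd79b) was tested and rose, and of the T and NK cell list 1 (Cd4) was tested and fell. Of 7 neutrophil markers 3 could be tested and 3 rose (Csf3r, S100a8 and Camp). The sum of the list ranged from 2.74 to 15.6 CPM without Tat and from 11 to 98.6 CPM with it. The part of these markers in the differences of the 10 genes was not tested. Over the 48 libraries the sum had a median of 23.3 CPM and Csf3r alone one of 19.5 CPM. Other markers of the list were near 0: S100a9 and Mpo did not exceed 0.255 and 0.252 CPM. The neutrophil enzyme gene Elane was listed at 0 in 47 of the 48 libraries. For lymphocytes, whose activation markers include Tnfrsf8 and Tnfrsf9, Gzmb and Prf1 were listed at 0 in all 48 libraries and Cd3e did not exceed 0.0472 CPM, whereas Cd4 of the same list ranged from 27 to 263 CPM.

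Replicate 2 stood apart for several genes. It was the highest of the 3 libraries in 15 of the 16 groups for Tnfaip2, in 14 for Tnfrsf1b and Tnfrsf14, and in 12 for Tnfrsf8, and also in 15 for the summed myeloid markers. For Tnfrsf1a it was the highest in 5. Without all libraries numbered 2, an alternative chosen after seeing the data, the mean effect of Tat was called for the 10 genes, and Tnfrsf1b, Tnfrsf8 and Tnfrsf14 still fell when 4OI was added to Tat-Cocaine, whereas in the effect of Tat with 4OI 1 gene was called, Tnfaip2. The part of the myeloid markers in these values was not tested.

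The other 3 compounds were tested in the same way in cultures with Tat and cocaine. With Tazemetostat, 1 of the 10 rose, and 0 fell, where 15.2% of all genes tested rose and 13.4% fell. It was Tnfsf9, from 1.79, 1.68 and 2.09 CPM in Tat-Cocaine to 3.53, 5.30 and 3.29 CPM in Tat-Cocaine-Tazemetostat cultures (0.93, SE 0.26, limma FDR 0.0132). It failed the test without Tat-Cocaine replicate 1 (FDR 0.0683) or 2 (FDR 0.0612), without Tat-Cocaine-Tazemetostat replicate 2 (FDR 0.0989) and without all libraries numbered 2 (FDR 0.144), and the count was 3 without Tat-Cocaine replicate 3. Of the myeloid markers 8 of 14 rose in this comparison (median 1.12), and 8 of 10 neuron markers fell. Their part in the rise of Tnfsf9 was not tested. With Amlexanox 0 of the 10 genes were called (0.925% of all genes tested), and with Senicapoc 0 (0.0441%). The numbers of all genes called depended on single libraries in the 3 comparisons. Without Tat-Cocaine replicate 3 they were 1317 with Amlexanox, 985 with Senicapoc and 5865 with Tazemetostat. The lowest numbers were 5 with Amlexanox and 0 with Senicapoc, both without Tat-Cocaine replicate 2, and 174 with Tazemetostat, without Tat-Cocaine-Tazemetostat replicate 2. Of the 10 genes, 0 had an unadjusted limma p under 0.05 with Amlexanox or with Senicapoc, where 2829 and 2466 of all genes tested had. The 95% intervals did not exclude differences in either direction. With Amlexanox they ran from −0.75 to 0.30 for Tnfrsf1b and from −1.05 to 0.04 for Tnfrsf11b, and with Senicapoc from −0.54 to 0.51 for Tnfrsf1b and from −0.10 to 1.26 for Tnfrsf9.

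**Figure D4:**
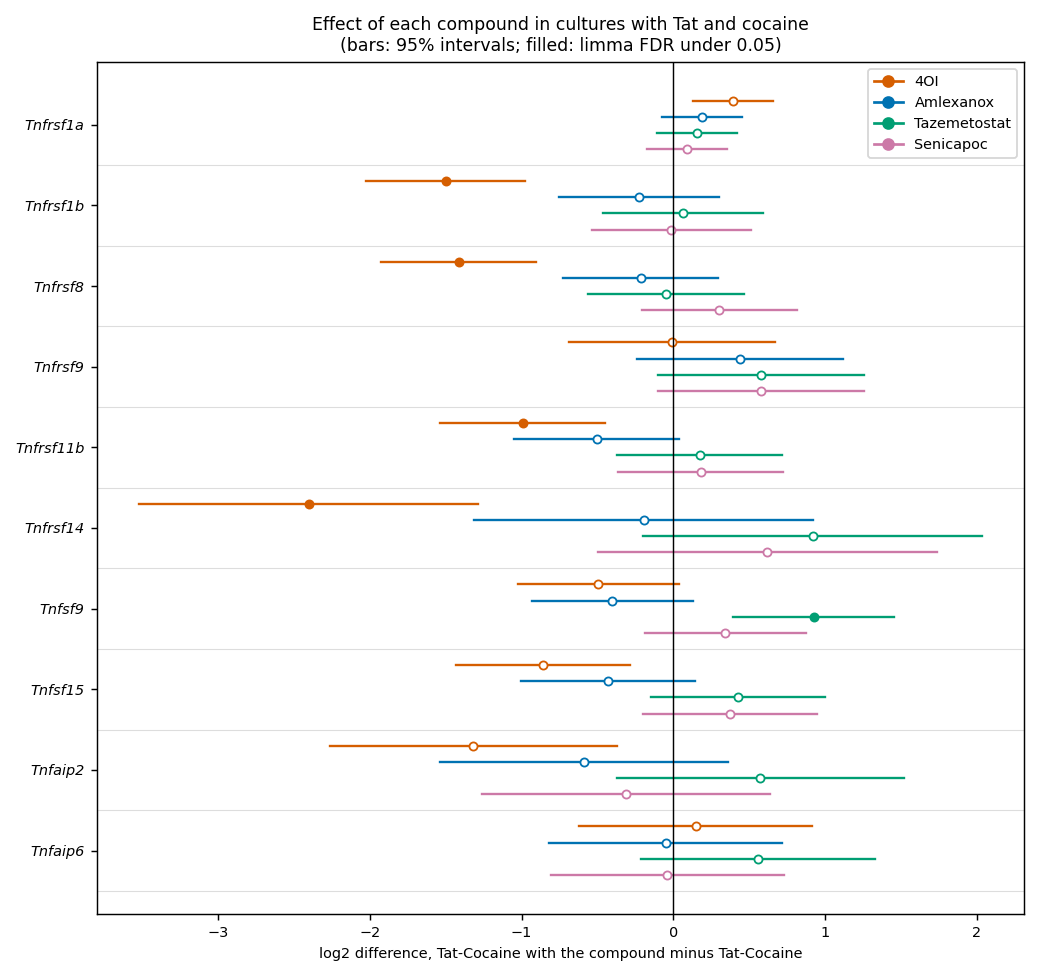
Difference on the log2 scale (horizontal axis) between cultures with Tat, cocaine and a compound and cultures with Tat and cocaine, for each of the 10 genes and 4 compounds. Points are estimates, bars are 95% intervals, and filled points have a limma FDR under 0.05. The filled points are 4 receptors with 4OI, between −2.40 and −0.99, and Tnfsf9 with Tazemetostat, at 0.93.

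The response to Tat under Amlexanox, Tazemetostat or Senicapoc, each against the mean of the other 3 compounds, did not differ beyond the threshold for any of the 10 genes, where limma called 7.05%, 0% and 0% of all genes tested. The first share, 1121 genes, depended on single libraries: it was 0 genes without Amlexanox replicate 3 or without Tat-Amlexanox replicate 1 and 2874 without Amlexanox replicate 1. At an unadjusted p under 0.05 the numbers were 2, 3 and 2 of the 10. The count under Amlexanox was 2 without Amlexanox replicate 1, and 1 without Tazemetostat replicate 1, Senicapoc replicate 2, Tat-Tazemetostat replicate 2 or Tat-Senicapoc replicate 3.

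Comparisons that use the Tat or Control libraries share them with the choice of the genes and carry no test. With 4OI added to Tat alone, 8 of the 10 genes stood below Tat in all 3 libraries, an order seen in 17.2% of all genes tested. Tnfrsf1b stood at 19.3, 31.1 and 16.9 CPM in Tat-4OI cultures and Tnfrsf14 at 1.23, 4.95 and 1.36 CPM, close to their Control levels. The 2 exceptions were Tnfrsf1a and Tnfaip6, at 139.1, 146.2 and 159.9 CPM and at 8.35, 22.6 and 14.4 CPM. With Amlexanox added to Tat the number below was 6 (9.69% of all genes), with Senicapoc 3 (13.6%) and with Tazemetostat 0 (4.53%). Without Tat, 4OI left Tnfrsf1a (131.3, 125.4 and 157.2 CPM) and 1 other gene, Tnfsf9 (0.552, 0.517 and 0.584 CPM), above Control in all 3 libraries (10.9% of all genes). Tnfsf9 also stood above Control in all 3 libraries with each of the other compounds, as the 1 gene of the 10 with Amlexanox (9.69% of all genes) and Tazemetostat (5.34%), and with Tnfsf15 as 1 of 2 with Senicapoc (6.81%). The group means of Tnfsf9 were 0.827 CPM with Amlexanox, 1.13 CPM with Tazemetostat and 0.960 CPM with Senicapoc, against 0.467 CPM in Control.

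In Cocaine cultures 3 of the 10 genes stood above Control in all 3 libraries (3.05% of all genes tested), among them Tnfrsf11b at 2.31, 3.96 and 4.26 CPM. The others were Tnfsf15 (0.755, 0.978 and 0.724 CPM) and Tnfsf9 (0.896, 1.55 and 0.563 CPM). All 10 genes stood above Control in Tat-Cocaine cultures (15.1% of all genes tested), and all 10 overlapped between Tat-Cocaine and Tat cultures, where 6.19% of all genes tested stood lower and 5.29% higher. Added to Tat with a compound, in the mean over 4 compounds, cocaine left 0 of the 10 genes past the threshold, where limma called 11.1% of all genes tested and 4 of the 10 had an unadjusted p under 0.05. The largest difference among the 10 was that of Tnfrsf9, at 0.47 (95% interval 0.13 to 0.81, limma FDR 0.0617). It passed without Tat-Tazemetostat replicate 2 (FDR 0.0262) or without Tat-Cocaine-4OI replicate 1 (FDR 0.0394), and with the first of these 2 libraries left out the count was 2. In a fit to the 8 groups concerned the count was 3 (Tnfrsf1a, Tnfrsf9 and Tnfrsf11b, limma FDR 0.0137 to 0.0427).

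Ordered by group mean, the levels of a gene rose in steps that were mostly smaller than the spread. The order includes Tat and Control, the groups the genes were chosen on, and it was not made for other genes. Of the 15 pairs of neighbouring groups, the libraries did not overlap in 0 for Tnfrsf1a, Tnfsf15, Tnfaip2 and Tnfaip6, in 1 for Tnfrsf1b, Tnfrsf8 and Tnfrsf14, in 2 for Tnfrsf9 and Tnfrsf11b and in 3 for Tnfsf9. The single gap of Tnfrsf1b lay between Cocaine, with a mean of 28.8 ± 13.2 CPM (SD, n = 3), and Tat-Cocaine-Amlexanox, with 49.9 ± 2.78 CPM. The groups below it were the 6 without Tat and the 2 with Tat and 4OI. The highest group mean was that of Tat, where the genes are high by choice, for Tnfrsf1b, Tnfrsf8 and Tnfsf15 (64.2 ± 4.23, 2.04 ± 0.345 and 3.59 ± 0.864 CPM). It was that of Tat-Cocaine-Tazemetostat for Tnfrsf14, Tnfsf9, Tnfaip2 and Tnfaip6, that of Tat-Cocaine-Senicapoc for Tnfrsf9 and Tnfrsf11b, and that of Tat-Cocaine-4OI for Tnfrsf1a (169.9 ± 19.2 CPM).

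Across the 48 libraries, which share groups and scaling, the genes varied together to different degrees. The libraries include those of Tat and Control, on which the genes were chosen, so part of this common variation follows from the choice. Pearson's r on the log2 scale was 0.949 between Tnfrsf1b and Tnfrsf14 and 0.934 between the neighbours Tnfrsf1b and Tnfrsf8, whereas Tnfrsf1a had an r of 0.303 to 0.629 with the other 9. Of the receptor and ligand pair Tnfrsf9 and Tnfsf9, r was 0.684. Among all genes tested outside the 10, the one most like Tnfaip2 was LOC685067 (r = 0.979), like Tnfrsf14 Pik3ap1 (0.977), like Tnfrsf9 Orm1 (0.967), like Tnfrsf1b Rcsd1 (0.967) and like Tnfrsf8 Tagap (0.939). For Tnfrsf11b it was Rasl12 (0.915), for Tnfsf15 Wfdc21 (0.915), for Tnfrsf1a Abcc4 (0.904), for Tnfaip6 Spata13 (0.897) and for Tnfsf9 Tuba1c (0.893).

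RNA of the Tnf gene was at or near the limit of detection, which does not give the level of the protein. The paper reports that TNF-α protein released into the medium increased with Tat-Cocaine and was reduced when the itaconate ester was added. Tnf was listed at 0 in 43 of the 48 libraries and did not exceed 2.00 reads, and the lymphotoxin genes Lta and Ltb did not exceed 3.00 and 1.00 reads. Such a listing need not mean absence, since Map3k7, a kinase gene used by most cells, was listed at 0 in 38 libraries. Of the known partners, Tnfsf11, the ligand that osteoprotegerin neutralizes in bone, was listed at 0 in all 48 libraries, and Tnfsf8, the ligand of CD30, did not exceed 0.284 CPM. Tnfrsf25, the receptor of Tnfsf15, did not exceed 0.561 CPM. Tnfsf14, the ligand of Tnfrsf14, did not exceed 0.994 CPM and was higher with Tat by 0.62 in the mean of the 5 settings (SE 0.10, limma FDR 4.23e-06). Tnfsf10, the death ligand that osteoprotegerin also binds, was higher by 0.90 (SE 0.11, limma FDR 5.04e-08). It stood at 6.05, 10.7 and 8.33 CPM in Tat-Cocaine and at 0.187, 0.875 and 0.248 CPM in Tat-Cocaine-4OI cultures (−3.28, SE 0.25, limma FDR 3.02e-11).

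The rest of the TNF system was counted in the same mean effect of Tat, which called 26.2% of all genes tested higher and 21.4% lower. Of 16 further ligand genes 8 could be tested, of which 3 were higher and 3 lower. Tnfsf4, a costimulatory ligand, was among the lower ones (−1.03, SE 0.12, limma FDR 8.04e-09). Of 20 further receptor genes 11 could be tested, and 6 were higher and 0 lower, Fas among them (0.71, SE 0.08, limma FDR 2.23e-08). Of 6 further TNF-induced genes 5 were higher and 0 lower, with Tnfaip3, which restrains NF-kB signalling, at 1.59 (SE 0.18, limma FDR 9.92e-09) and Tnfaip8 at 1.16 (SE 0.14, limma FDR 1.89e-08). Of 26 genes of TNF receptor signalling 25 could be tested, and 18 were higher and 1 lower. The ubiquitin ligases Birc3 (3.30, SE 0.23, limma FDR 7.91e-14) and Birc2 (1.46, SE 0.12, limma FDR 2.67e-12) and the necroptosis effector Mlkl (1.12, SE 0.10, limma FDR 6.91e-11) had the smallest p, and the adaptors Tank (0.70) and Traf2 (0.61) were also higher. When 4OI was added to Tat-Cocaine, Birc3 stood at 52.5, 116.0 and 172.2 CPM without it and at 40.7, 146.9 and 58.6 CPM with it (−0.52, 95% interval −1.57 to 0.52, limma FDR 0.608).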

How the data were processed

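The authors prepared strand-specific libraries from polyA RNA, aligned the reads with STAR and counted them per gene with featureCounts (Subread 1.5.3, per the submitters' notes). The signal the authors deposited is CPM after TMM normalization in edgeR, in 1 table with 48 library columns, 16 columns of group means and 180 columns of their own comparisons (fold changes, likelihood ratios, p-values), which were not used. The sources name different rat genome builds, so positions are given only for RefSeq sequences (GRCr8). The library values add up to 930399 to 1046892, and 84.5 to 86.7% of the low values were whole reads within 0.02 read. Fractions of a read remain, and count models were not run.

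Values were analysed as log2(CPM + 0.5) with limma 3.58.1 in R 4.3.3 (1 mean per group, no covariates, eBayes with a trend). A gene was tested if 3 or more of the 48 libraries reached 0.5 CPM, which kept 15890 genes and all of the 10. The fit to all 48 libraries gave 1 shared estimate of spread, to which the Tat and Control libraries contributed. Calls in the 15 contrasts, which use no mean of the Tat or Control group, were made at an FDR (Benjamini-Hochberg) below 0.05. The labels number the 3 libraries of a group without saying that they came from separate cultures, so p-values measure the spread between libraries, which may be technical. The smallest two-sided p of an exact permutation test between groups of 3 is 0.1.

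The 10 genes and the lists (4 of the TNF system, 10 of cell type markers) were chosen with earlier results of these data known. Further genes named were the partners of the 10, Tnf, Lta and Ltb, the 10 listed genes with the smallest p for the mean effect of Tat, and for each of the 10 the gene of highest r. Birc3 with 4OI, Csf3r, S100a8, Camp, S100a9, Mpo, Cd79b, Cd4, Map3k7, Elane, Gzmb, Prf1 and Cd3e were named after their values were seen. Alternatives were 2 other pseudocounts, no filter, a minimum of 2 CPM, median ratio rescaling, quantile normalization, no trend, a replicate block, the compared groups alone, each library left out, and all libraries numbered 2 left out. A contrast counted as paired only if r passed a set limit in every same-number pair of its libraries. This r was taken on deviations from the group means. The rule was met in 1 contrast (Tat with Amlexanox, r 0.176 to 0.237 in 3 pairs).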

Additional observations from a re-analysis of the deposited data

Results flagged for a closer look

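The effect of Tat on Tnfrsf8 in the presence of 4OI differed from its mean effect with the other 3 compounds by −1.58 on the log2 scale in the limma test of the difference itself. Tnfrsf8 is a low gene, and the value depends on libraries with few reads: it was −1.74 to −1.43 when 1 of 24 libraries was left out.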

How the results depend on the processing

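For the 10 genes, 799 of 858 values under settings other than leaving out 1 library kept their direction and side of the threshold, 41 were weaker, 16 stronger and 2 reversed. The reversed values were close to 0: Tnfrsf9 with 4OI added to Tat-Cocaine was 0.0247 after quantile normalization, and Tnfaip6 was −0.0446 without all libraries numbered 2. With a replicate block, the number of the 10 genes called was 7 for 4OI added to Tat-Cocaine (with Tnfrsf1a, Tnfsf15 and Tnfaip2, limma FDR 0.0491, 0.0174 and 0.00135), 2 for Tazemetostat added, 3 for the response to Tat under 4OI against the other 3 compounds (with Tnfrsf1b and Tnfrsf14, FDR 0.0185 and 0.0224) and 2 for cocaine added. By the rule used, replicate numbers did not pair the libraries there, since it asks every same-number pair to pass the limit. For cocaine added 63 of 84 pairs passed it (median r 0.4, from −0.571 to 0.836), and for the response under 4OI 49 of 84 (median 0.146). For 4OI added and for Tazemetostat added 1 of 3 passed. Of the 48 libraries, 30 correlated best with their own number, so the rule does not show that the libraries were unrelated. In the contrast that counted as paired, Tat with Amlexanox, the block changed no call. In fits to the compared groups alone the counts were 1 for Tat with Cocaine, 0 for Tat with 4OI, 0 for 4OI added and 3 for cocaine added. Without all libraries numbered 2 they were 1 for Tat with 4OI, 0 for Tazemetostat added and 2 for the response under 4OI.

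Leaving out 1 library gave 10 to 10 genes for the mean effect of Tat, 4 to 7 for Tat with Cocaine, 0 to 4 with 4OI, 7 to 8 with Amlexanox, 8 to 9 with Tazemetostat and 6 to 10 with Senicapoc. It gave 3 to 5 for 4OI added, 0 to 3 for Tazemetostat added, and 0 for Amlexanox or Senicapoc added. For the response to Tat under a compound it gave 0 to 1 with 4OI, 0 to 2 with Amlexanox and 0 with the other 2, and 0 to 2 for cocaine added. Values that changed sign in this way ranged from −0.36 to 0.37 (Tnfrsf9, 4OI added), −0.28 to 0.44 (Tnfaip6, 4OI added), −0.37 to 0.32 (Tnfaip6, response under 4OI), −0.24 to 0.073 (Tnfrsf8, Tat with 4OI) and −0.035 to 0.40 (Tnfsf15, Tat with 4OI).

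Quantile normalization moved the share of higher calls among all genes from 56.9 to 46.3% for Tat with Cocaine, 57.1 to 45.8% with Amlexanox, 65.0 to 53.1% with Tazemetostat, 67.8 to 49.6% with Senicapoc and 28.6 to 15.4% for Senicapoc added. The causes were not tested. Below about 0.5 CPM, as for Tnfrsf8 without Tat, a value rests on a few reads, and smaller differences could not be seen.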
